A study of Mus musculus with 6 samples.

Results

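The sirtuins and the enzymes of NAD synthesis were measured in prostates of TRAMP mice after oral treatment with OSU-CG5 or with vehicle. The group comprised 10 genes, the 7 sirtuins Sirt1 to Sirt7 together with Nampt, Nmnat1 and Nmnat3. Its members were all probe sets that the array platform's annotation assigns to exactly 1 of these symbols, and they numbered 16 of the 45037 non-control probe sets, for 10 of the 18193 genes with a single symbol. Sirt5 and Nampt had 3 probe sets each, Nmnat1 and Nmnat3 had 2 each, and the other genes had 1 each. All mice, treated and vehicle alike, were intact males from a cross of C57BL/6 TRAMP with FvB (F1). The source labels name all of them as TRAMP mice. In the TRAMP transgene a probasin promoter directs the SV40 T antigens to prostate epithelium. The OSU-CG5 group received 100 mg/kg per day by oral gavage for 4 weeks, from 6 to 10 weeks of age, and the vehicle group received vehicle over the same weeks. For OSU-CG5 replicates 2 and 3 the free-text descriptions name OSU-CG6 and OSU-CG7, whereas their titles, source labels and the series design name OSU-CG5, which was followed here. Mice were killed 2 to 4 h after their final dose. The dorsal and lateral prostate lobes of 3 mice per group were each measured on 1 Affymetrix array. OSU-CG5 is known here by its code name and has been described as an energy restriction-mimetic agent, so the comparison asks whether genes of NAD metabolism differed in transcript signal after treatment. Mice without the transgene were not analysed here.

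NAD carries electrons in metabolism and is also consumed as a substrate. Sirtuins use it to remove acetyl and other acyl groups from proteins. The reaction releases nicotinamide, which Nampt, the rate-limiting enzyme of the salvage route, converts to nicotinamide mononucleotide, and the Nmnat enzymes then turn that product into NAD. Sirt1, Sirt6 and Sirt7 are mainly nuclear, Sirt2 is mainly cytoplasmic, and Sirt3, Sirt4 and Sirt5 are mitochondrial. Nmnat1 is nuclear and Nmnat3 mitochondrial. Sirtuins are widely studied in the response to dietary energy restriction.

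The upstream sequences of 3 members are shown to set Sirt4 beside the deacetylase Sirt1 and the salvage enzyme Nampt. Sirt4 was the 1 member of 16 whose groups did not overlap, where those of 23.6% of all probe sets did not. Each window is the 250 bases before the annotated start in RefSeq on GRCm38.p6, read 5′ to 3′ on the gene's strand. The windows lie at chr10:63339036-63339285 on the minus strand for Sirt1, at chr12:32820085-32820334 on the plus strand for Nampt and at chr5:115484298-115484547 on the minus strand for Sirt4. Capitals mark matches, on either strand, to the GC box GGGCGG, the E-box CACGTG, the CCAAT box CCAAT and the TATA box TATAAA.
Sirt1: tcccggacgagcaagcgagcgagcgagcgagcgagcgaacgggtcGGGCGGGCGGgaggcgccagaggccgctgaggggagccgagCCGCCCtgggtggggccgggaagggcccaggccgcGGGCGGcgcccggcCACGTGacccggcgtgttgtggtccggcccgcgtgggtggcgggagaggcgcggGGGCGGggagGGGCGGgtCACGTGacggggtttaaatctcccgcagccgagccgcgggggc
Nampt: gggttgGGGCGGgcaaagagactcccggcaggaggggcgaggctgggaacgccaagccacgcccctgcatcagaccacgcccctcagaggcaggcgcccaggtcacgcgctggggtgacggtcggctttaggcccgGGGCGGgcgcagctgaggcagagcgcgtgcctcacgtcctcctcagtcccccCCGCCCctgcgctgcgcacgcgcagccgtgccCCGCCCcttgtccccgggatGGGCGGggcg
Sirt4: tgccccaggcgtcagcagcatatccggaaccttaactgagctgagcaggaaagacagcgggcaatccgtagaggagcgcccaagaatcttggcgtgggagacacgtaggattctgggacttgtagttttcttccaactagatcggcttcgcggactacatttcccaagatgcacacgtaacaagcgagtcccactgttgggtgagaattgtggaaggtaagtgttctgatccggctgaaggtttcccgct
The Sirt1 window held 6 GC boxes, some of them overlapping, and 2 E-boxes. The Nampt window held 5 GC boxes and 0 E-boxes. The Sirt4 window held 0 matches to any of the motifs, as did a window of Sirt3 and a window of Sirt6 not shown here.

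RefSeq gave 13 upstream windows for the 10 genes, and those of Nmnat1 and of Sirt6 overlap within the gene. A GC box occurred in 10 of the 13 windows, from 9 genes, and in 32.7% of all 32851 windows of the same length. CCAAT occurred in 4 of the 13 and in 33.8% of all windows. An E-box occurred in 1 of the 13, that of Sirt1, and in 6.02% of all, and TATAAA in 0 of the 13 and in 12.4% of all. The windows of the members held 9 to 39 CpG dinucleotides each, against a median of 6 and quartiles of 2 and 16 over all windows. Several of the member windows thus lay between those quartiles. These matches describe letters in a window and were not tested for binding.

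No member passed the test for a difference between OSU-CG5 and vehicle. In the fit with limma over all probe sets, 0 of the 16 had a Benjamini-Hochberg adjusted p under 0.05, where 0.0% of all probe sets had one, and the smallest adjusted p among the members was 0.265. Over all probe sets the count became 822 under array quality weights, and leaving out a vehicle array gave 400 for replicate 2 and 885 for replicate 3. The members' count was 0 in each of these refits. At an unadjusted p under 0.05 there was 1 member, Sirt4, which read lower, while 16.4% of all probe sets had such a p (9.63% higher and 6.8% lower). The median log2 difference, OSU-CG5 minus vehicle, was -0.010 over the 16, against -0.059 over all probe sets, and 9 of the 16 were below 0, where 60.5% of all probe sets were. After cyclic loess between arrays 8 of the 16 were below 0 and the medians were -0.00050 for the members and -0.0053 for all probe sets. At a minimum mean of log2 6 they were 0.029 for the 10 members left and 0.013 for all. All values are log2 signals from a normalization of the arrays together, and each SE is limma's moderated standard error. The members' 95% intervals, taken singly, lay between 0.614-fold at the lower end for Sirt4 and 1.78-fold at the upper end for a probe set of Nampt. In bulk tissue, fewer cells of a type and less RNA per cell cannot be told apart.

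**Figure D1:**
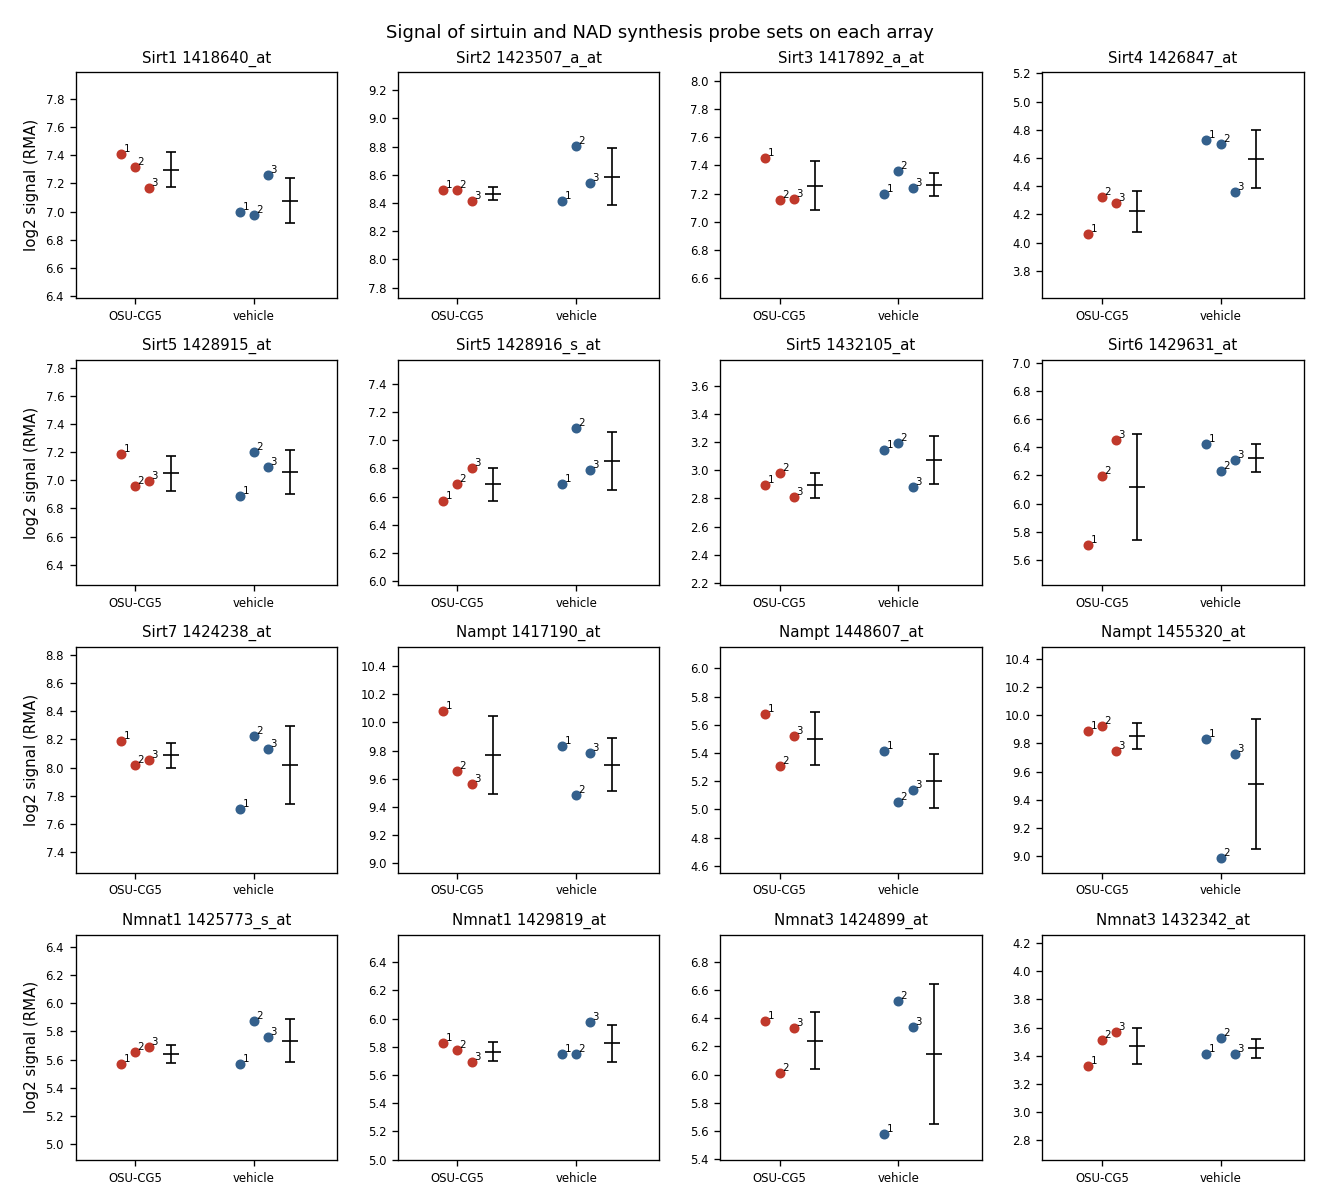
Log2 signal of each of the 16 member probe sets on each array, with OSU-CG5 (red) left of vehicle (blue), replicate numbers beside the points and mean ± SD of 3 arrays as bars; every panel spans the same height on the log2 scale. The groups are separate in the Sirt4 panel, with all OSU-CG5 arrays at or below 4.33 and all vehicle arrays at or above 4.36, and overlap in the others.

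The arrays were not equally alike, and the members' highest and lowest values were spread unevenly over them. Vehicle replicate 2 was the least like the rest (Pearson correlations over all probe sets of 0.966 to 0.981), and its mean over 6 seminal vesicle transcripts was 7.91 on the log2 scale, against 3.56 to 5.08 on the others. It gave the highest value for 7 of the 16 members and the lowest for 4. OSU-CG5 replicate 1 gave the highest for 4 and the lowest for 5. These counts were taken for the members only, with no share over all probe sets to set beside them. The prostate epithelial markers measured, 5 of 7, averaged 11.98 to 12.19 with OSU-CG5 and 12.07 to 12.3 with vehicle. That average covers a mixed list. The log2 differences were -0.50 for Krt8, -0.22 for Krt18 and -0.10 for Hoxb13, and 0.18 for Pbsn and 0.087 for Tgm4.

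**Figure D2:**
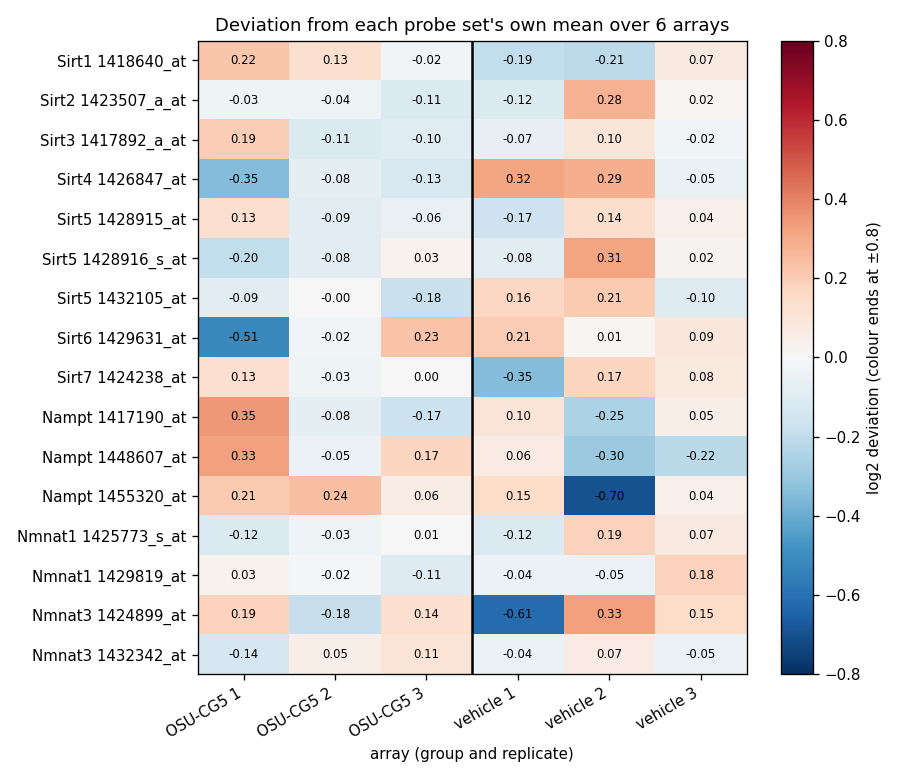
Log2 deviation of each array from the probe set's own mean over the 6 arrays, with the 3 OSU-CG5 arrays left of the line and the 3 vehicle arrays right of it; red is above and blue below that mean. Vehicle replicate 2 is lowest in all 3 Nampt rows, and OSU-CG5 replicate 1 is lowest in the Sirt6 row at -0.51.

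Among the nuclear sirtuins, Sirt1, a deacetylase of histones and of transcription factors, read slightly higher with OSU-CG5 without passing the test. Its probe set 1418640_at gave 7.41, 7.32 and 7.17 on the OSU-CG5 arrays and 6.99, 6.98 and 7.26 on the vehicle arrays. Vehicle replicate 3 lay above OSU-CG5 replicate 3, so the groups overlapped, while the other vehicle arrays lay below all OSU-CG5 arrays. The means were 7.30 ± 0.12 and 7.08 ± 0.16 (SD, n = 3 each), and the log2 difference was 0.22 (SE 0.13, 95% interval -0.081 to 0.52; limma adjusted p = 0.428). The estimate stayed above 0 when each array was left out in turn, at 0.16 to 0.31.

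Sirt6, a deacetylase of histone H3 with roles in DNA repair and glucose metabolism, had the largest SD of the members with OSU-CG5, 0.38. Probe set 1429631_at read 5.71, 6.20 and 6.45 with OSU-CG5 and 6.42, 6.23 and 6.31 with vehicle. OSU-CG5 replicate 1 was the low value, and replicate 3 of the same group was the highest of all 6. The log2 difference of -0.21 (SE 0.19; limma adjusted p = 0.600) was -0.00052 without OSU-CG5 replicate 1. Sirt7, a nucleolar sirtuin linked to transcription by RNA polymerase I, read 8.19, 8.02 and 8.06 with OSU-CG5 on probe set 1424238_at, and 7.71, 8.22 and 8.13 with vehicle. The OSU-CG5 arrays lay within the range of the vehicle arrays, of which replicate 1 was low. The log2 difference was 0.066 (SE 0.16; limma adjusted p = 0.851), and it was -0.091 without vehicle replicate 1.

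Sirt2, the mainly cytoplasmic sirtuin that deacetylates tubulin, read 8.49, 8.49 and 8.41 with OSU-CG5 on probe set 1423507_a_at and 8.41, 8.81 and 8.55 with vehicle. The OSU-CG5 arrays lay close together, with an SD of 0.045, and vehicle replicate 2 was the high value. The log2 difference was -0.12 (SE 0.13; limma adjusted p = 0.663) and -0.012 without vehicle replicate 2.

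Of the mitochondrial sirtuins, Sirt4 was lower with OSU-CG5 on every array, by a margin that did not pass adjustment. Sirt4 is known to act on glutamate dehydrogenase and on lipoyl groups of mitochondrial enzymes. Its probe set 1426847_at read 4.06, 4.33 and 4.28 with OSU-CG5 and 4.72, 4.70 and 4.36 with vehicle. The highest OSU-CG5 value and the lowest vehicle value, that of replicate 3, were close, and the other vehicle arrays stood clearly above. The means were 4.22 ± 0.14 with OSU-CG5 and 4.59 ± 0.21 with vehicle (SD, n = 3 each), a log2 difference of -0.37 (SE 0.14) or 0.772-fold (95% interval 0.614 to 0.971; limma unadjusted p = 0.0316, adjusted p = 0.265). The groups did not overlap for 23.6% of all probe sets (11.9% lower), and Sirt4 was the 1 member of 16 for which they did not. The difference kept its direction in every refit that leaves out 1 array, from -0.49 to -0.29. The unadjusted p was 0.106 without OSU-CG5 replicate 1, 0.0565 without OSU-CG5 replicate 3, 0.101 without vehicle replicate 1, 0.0650 without vehicle replicate 2 and 0.0516 after cyclic loess. It was 0.0251 with array weights, 0.0428 without OSU-CG5 replicate 2 and 0.00866 without vehicle replicate 3, and in all it was under 0.05 in 5 of 10 alternatives. The signal was low, since the lower quartile of all probe sets was 3.87 to 4.05 on these arrays.

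Markers of other cell types mostly read lower with OSU-CG5 on the same arrays, where 65.7% of all genes were below 0. Of 12 marker lists, the mean of 5 was lower on all OSU-CG5 arrays than on any vehicle array, and 0 were higher on all. Taken singly, 22.3% of all 18193 genes had groups that did not overlap (2576 genes lower and 1474 higher). No such share was taken for means of lists. The macrophage list, with 5 of 5 genes below 0, averaged 6.56 to 6.93 with OSU-CG5 and 7.03 to 7.63 with vehicle. The skeletal muscle list, also 5 of 5, averaged 5.37 to 5.83 with OSU-CG5 and 6.28 to 6.56 with vehicle. The others were the endothelial list (4 of 4 genes below 0), the basal epithelial list (3 of 3) and the lymphocyte list (3 of 4). The sizes of the differences varied within each. The endothelial list averaged 4.996 to 5.09 with OSU-CG5 and 5.19 to 5.424 with vehicle, with Plvap at -0.41 and Pecam1 at -0.022. The basal list averaged 5.592 to 5.806 and 5.825 to 5.92, with Krt14 at -0.35 and Trp63 at -0.0018. The lymphocyte list averaged 4.552 to 4.594 and 4.637 to 4.758, with Cd3e at -0.36 and Ms4a1 at 0.025. The part of such cells in the Sirt4 value was not tested.

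Sirt3, the main deacetylase of mitochondrial enzymes, gave 7.45, 7.15 and 7.16 with OSU-CG5 on probe set 1417892_a_at and 7.19, 7.36 and 7.24 with vehicle. The groups overlapped throughout, with OSU-CG5 replicate 1 the highest of all. The log2 difference was -0.0084 (SE 0.13, 95% interval -0.30 to 0.29; limma adjusted p = 0.981).

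Sirt5, which removes succinyl, malonyl and glutaryl groups from mitochondrial proteins, was read by 3 probe sets. On 1428915_at it gave 7.19, 6.96 and 6.99 with OSU-CG5 and 6.89, 7.20 and 7.10 with vehicle, a log2 difference of -0.012 (SE 0.13). On 1428916_s_at it gave 6.57, 6.69 and 6.80 with OSU-CG5 and 6.69, 7.08 and 6.79 with vehicle, a log2 difference of -0.17 (SE 0.14) that was -0.054 without vehicle replicate 2. On 1432105_at it gave 2.89, 2.98 and 2.81 with OSU-CG5 and 3.15, 3.19 and 2.88 with vehicle, a log2 difference of -0.18 (SE 0.13). The differences shared a sign, the groups overlapped on each, and the smallest limma adjusted p of the 3 was 0.503. All 3 were highest in vehicle replicate 2, while the array with the lowest value differed between them. Signal on 1432105_at lay below the lower quartile of its array on all 6 arrays. An identifier ending in s_at marks a probe set that can also bind other transcripts.

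**Figure D3:**
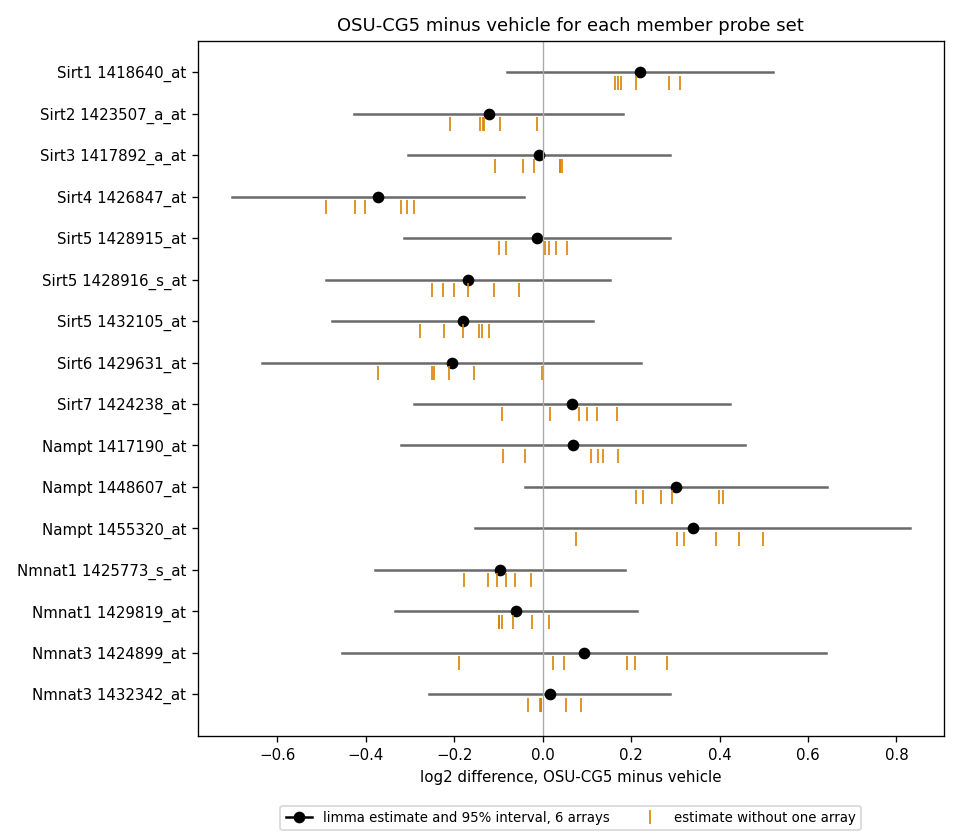
Log2 difference, OSU-CG5 minus vehicle, for each member probe set: points are the limma estimates from 6 arrays, lines the 95% intervals, and ticks the estimates with 1 array left out. The Sirt4 interval, -0.70 to -0.042, is the one that leaves out 0.

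In the salvage route, all 3 probe sets of Nampt read higher with OSU-CG5, by 1.05-fold to 1.26-fold, and none passed the test. Probe set 1417190_at gave 10.08, 9.66 and 9.56 with OSU-CG5 and 9.83, 9.48 and 9.78 with vehicle. Its groups overlapped, and the log2 difference was 0.069 (SE 0.17; limma adjusted p = 0.860).

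Probe set 1448607_at, listed under the same sequence record as 1417190_at in the platform annotation, gave 5.68, 5.31 and 5.52 with OSU-CG5 and 5.41, 5.05 and 5.14 with vehicle. Vehicle replicate 1 lay above OSU-CG5 replicate 2, and the other vehicle arrays lay below all OSU-CG5 arrays. The means were 5.50 ± 0.19 with OSU-CG5 and 5.20 ± 0.19 with vehicle (SD, n = 3 each), a log2 difference of 0.30 (SE 0.15, 95% interval -0.041 to 0.64; limma adjusted p = 0.352).

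Probe set 1455320_at gave 9.89, 9.92 and 9.74 with OSU-CG5 and 9.83, 8.98 and 9.72 with vehicle. Vehicle replicate 2 was far below the other 5 arrays, which lay within 9.72 to 9.92. The log2 difference was 0.34 (SE 0.21; limma adjusted p = 0.452) with that array and 0.075 without it. Vehicle replicate 2 was the lowest array on all 3 Nampt probe sets. Without it the differences were -0.039 for 1417190_at and 0.23 for 1448607_at. Neutrophil markers, transcripts of a cell type that also expresses Nampt, had list means of 3.75 to 3.99 with OSU-CG5 and 3.80 to 4.19 with vehicle, with 3 of 4 genes measured. Their signal was low, with 2 of the 3 averaging below log2 4. All 3 differences were below 0, as were those of 65.7% of all genes. The part of neutrophils in the Nampt values was not tested.

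The enzymes that complete NAD showed small differences. Nmnat1, the nuclear adenylyltransferase, gave 5.57, 5.65 and 5.69 with OSU-CG5 on probe set 1425773_s_at and 5.57, 5.87 and 5.76 with vehicle, a log2 difference of -0.096 (SE 0.12) that became -0.18 when vehicle replicate 1 was left out and -0.027 when replicate 2 was. On 1429819_at it gave 5.83, 5.78 and 5.69 with OSU-CG5 and 5.75, 5.75 and 5.98 with vehicle, a log2 difference of -0.061 (SE 0.12). Both probe sets had overlapping groups, and their limma adjusted p-values were 0.712 and 0.819.

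Nmnat3, the mitochondrial form, gave 6.38, 6.01 and 6.33 with OSU-CG5 on probe set 1424899_at and 5.58, 6.52 and 6.34 with vehicle. The vehicle arrays held both the lowest and the highest value, and the OSU-CG5 arrays lay between them. The log2 difference of 0.094 (limma adjusted p = 0.865), with the largest SE among the members at 0.24, was -0.19 without vehicle replicate 1. On 1432342_at, with signal below the lower quartile on every array, Nmnat3 gave 3.32, 3.51 and 3.57 with OSU-CG5 and 3.41, 3.53 and 3.41 with vehicle, a log2 difference of 0.016 (SE 0.12).

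Probe sets of the same gene agreed in sign but less well array by array. In the 4 genes with several probe sets there were 8 pairs, and both probe sets of each pair had differences of the same sign. The signs parted after cyclic loess for Nmnat1, with array weights for Sirt5 and Nampt, and in some refits without 1 array for all 4 genes. The differences of a pair lay between 0.012 and 0.27 apart on the log2 scale. For each pair, 3 or 4 of the 6 arrays fell on the same side of both probe sets' own means. Probe sets of a gene share the RNA of the same mice and are no replicates of each other.

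Genes whose array pattern was most like that of Sirt1 or Nampt were found by the smallest root mean square gap between deviations from the 6-array mean, among 9626 other genes with a mean of at least log2 6. For Sirt1 they were Cep162, Dcun1d2 and Klhdc1, with gaps of 0.0370, 0.0403 and 0.0436, against a spread of 0.160 for Sirt1 itself. For Nampt, on 1417190_at, they were Haus1, Pigp and Mob1a, with gaps of 0.0383, 0.0398 and 0.0408, against a spread of 0.197. These likenesses rest on 6 arrays and describe these samples only.

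The wider NAD and sirtuin pathway was described with a list of 39 other genes, of which 37 were measured, each by its probe set of highest mean. None passed the limma adjusted threshold, the lowest adjusted p being 0.197. With an unadjusted p below 0.05, 1 was higher and 2 were lower, where 5.4% of all 18193 genes were higher and 8.43% lower. Of the 37, 25 were below 0, as were 65.7% of all genes, with a median log2 difference of -0.093 against -0.086 over all genes. The groups did not overlap for 6 of them, where they did not for 22.3% of all genes.

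Among enzymes that consume NAD besides the sirtuins, Parp2, a DNA damage-activated ADP-ribosyltransferase, was the gene with the smallest p. Parp2 read 9.58, 9.66 and 9.54 with OSU-CG5 and 9.23, 9.25 and 9.24 with vehicle, so that the groups stood apart. The vehicle arrays nearly coincided, with an SD of 0.0094, and the log2 difference was 0.36 (SE 0.11; limma unadjusted p = 0.00957, adjusted p = 0.197). It lay between 0.33 and 0.38 when each array was left out. Sarm1, a NAD-cleaving enzyme of axons, differed by -0.28 (SE 0.15). Of the 8 consumers measured 4 were above 0 and 4 below.

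In the route from tryptophan 6 of 8 genes measured were below 0, with a median of -0.22, beside the 65.7% of all genes that were. Kmo, the kynurenine monooxygenase, read 4.63, 4.60 and 4.46 with OSU-CG5 and 5.21, 4.89 and 4.73 with vehicle. All OSU-CG5 values lay below all vehicle values, and the log2 difference was -0.38 (SE 0.15; limma unadjusted p = 0.0312, adjusted p = 0.264). Without vehicle replicate 1 it was -0.25 (limma unadjusted p = 0.103). Kmo is known from macrophages and related cells, whose marker list was lower on the same arrays, and their part in the Kmo value was not tested. Afmid, which makes kynurenine from formylkynurenine, differed by -0.27 (SE 0.13) without overlap of the groups, while its other probe sets ranged from -0.070 to 0.21.

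**Figure D4:**
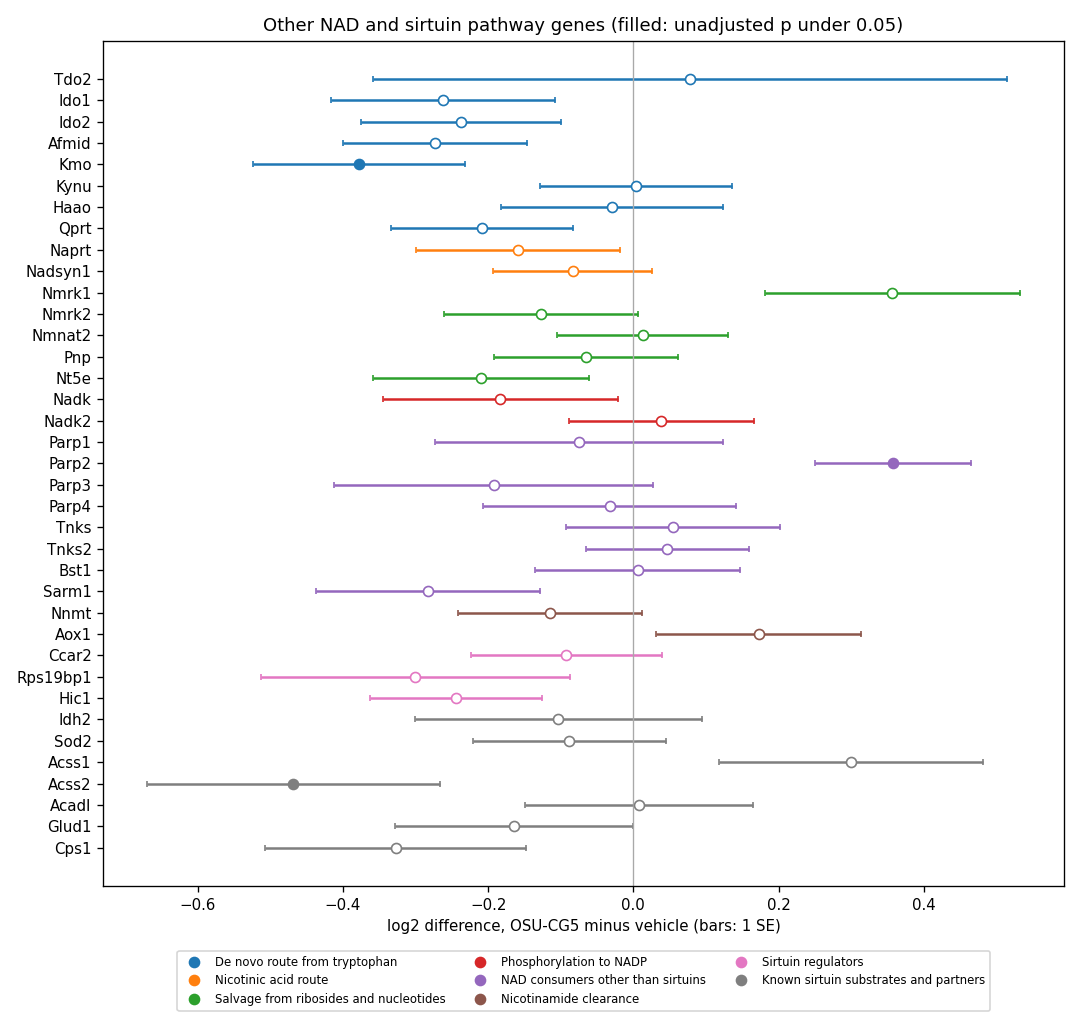
Log2 difference, OSU-CG5 minus vehicle, with bars of 1 SE, for the 37 measured genes of the wider pathway, coloured by role; filled points have an unadjusted p under 0.05. The filled points are Parp2 at 0.36, Kmo at -0.38 and Acss2 at -0.47.

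In the remaining routes of NAD metabolism, 0 genes had a limma unadjusted p under 0.05. Both genes of the nicotinic acid route were below 0, Naprt at -0.16 (SE 0.14) and Nadsyn1 at -0.084 (SE 0.11). Of the salvage genes, the nicotinamide riboside kinase Nmrk1 differed by 0.36 (SE 0.18; limma adjusted p = 0.350), with overlapping groups, and its other probe sets by -0.019 and 0.13. The ectonucleotidase Nt5e differed by -0.21 (SE 0.15). The NAD kinases Nadk and Nadk2 differed by -0.18 (SE 0.16) and 0.038 (SE 0.13). Another probe set of Nadk differed by -0.37, and those of Nadk2 ranged from -0.029 to 0.081. Of the enzymes that clear nicotinamide and its methylated product, Nnmt differed by -0.12 (SE 0.13) and Aox1 by 0.17 (SE 0.14).

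All 3 sirtuin regulators were below 0, a small count beside the 65.7% of all genes. Hic1, a repressor of Sirt1 transcription, read 6.74, 6.99 and 6.88 with OSU-CG5 and 7.18, 7.05 and 7.12 with vehicle. Its groups did not overlap, and the log2 difference was -0.24 (SE 0.12; limma unadjusted p = 0.0713, adjusted p = 0.344). Rps19bp1, known as an activator of Sirt1, differed by -0.30 (SE 0.21), and Ccar2, an inhibitor of Sirt1, by -0.093 (SE 0.13).

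Among 7 known sirtuin substrates 5 were below 0, close to that share. Acss2, a cytosolic acetyl-CoA synthetase deacetylated by Sirt1, read 7.67, 7.61 and 7.56 with OSU-CG5 and 7.81, 8.58 and 7.86 with vehicle. The groups did not overlap, and vehicle replicate 2 was the high value. The log2 difference was -0.47 (SE 0.20; limma unadjusted p = 0.0475, adjusted p = 0.299). Without vehicle replicate 2 it was -0.22 (limma unadjusted p = 0.101), and its other probe sets ranged from -0.079 to 0.40. Cps1, a urea cycle enzyme desuccinylated by Sirt5, differed by -0.33 (SE 0.18) at low signal. Glud1, the target of Sirt4, differed by -0.16 (SE 0.16).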

How the data were processed

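Gene expression was measured with 1 Affymetrix array per mouse in 3 OSU-CG5 and 3 vehicle mice, grouped by the treatment in the source label. The deposited values are log2 signals per probe set, made with RMA per the submitters' processing notes; which software ran it is not given in the sources used here. RMA is known to equalise array distributions and to compress fold changes. Of 45101 rows, 64 Affymetrix controls were removed. Probe sets were named from the platform annotation, and all 16 members matched a RefSeq gene number. Replicate numbers follow accession order and pair no mice.

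OSU-CG5 was compared with vehicle in limma 3.58.1 under R 4.3.3 without a filter, and p-values were adjusted by Benjamini-Hochberg over 45037 probe sets, at 0.05. The procedure was tested on simulated data. Alternatives were median centring, cyclic loess, a minimum mean of log2 6, an intensity trend with robust prior, array weights, the mean over a gene's probe sets and each array left out. The members and lists were chosen with earlier results of these data known. All member probe sets are named. From the pathway list, genes at an unadjusted p under 0.05 and up to 2 per role with the smallest p are named, with Ccar2 and Glud1 added after their values were seen. Acmsd and Cd38 were not analysed here. Precision is limited by the array number, and the spread is that between mice.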

Additional observations from a re-analysis of the deposited data

How the results depend on the processing

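Of the 16 member differences, 9 kept their direction under every alternative that gave them a value (11, or 10 for those with a mean under log2 6) and 7 did not, each of these 7 having an absolute value of at most 0.094 over all arrays. In limma 0 members passed the adjusted threshold under any alternative, with a smallest adjusted p of 0.110 for Sirt4. Over all probe sets the adjusted count was 0, against 822 with array weights, 400 without vehicle replicate 2, 885 without vehicle replicate 3 and 0 to 885 over all refits without 1 array. The member count at an unadjusted p under 0.05 was 0 with a minimum mean of log2 6, which leaves out 6 members, Sirt4 among them, and 0 to 2 without 1 array. The second member there, without OSU-CG5 replicate 2, was Nampt 1448607_at, which also had an unadjusted p of 0.0425 after cyclic loess and 0.0319 without vehicle replicate 1. The median difference was -0.098 to 0.013 without 1 array. Differences that turned were Sirt5 1428915_at at 0.017 and Nampt 1417190_at at -0.090 with array weights, and Nmnat1 1429819_at at 0.0020 after cyclic loess. With array weights Sirt5 1428916_s_at was -0.054 and Nmnat1 1425773_s_at was -0.011. Without 1 array the ranges of those that turned were -0.11 to 0.044 for Sirt3, -0.098 to 0.056 for Sirt5 1428915_at, -0.091 to 0.17 for Sirt7, -0.089 to 0.17 for Nampt 1417190_at, -0.099 to 0.015 for Nmnat1 1429819_at, -0.19 to 0.28 for Nmnat3 1424899_at and -0.034 to 0.087 for Nmnat3 1432342_at. The pathway list's higher count was 1 to 2 without 1 array, and its lower count 0 to 4 without 1 array and 1 with arrays centred. The cause of these changes was not tested. No paired analysis was possible because the labels give no replicate numbers that pair mice.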
